A study of Mus musculus with 6 samples.

Results

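Nonsense-mediated decay (NMD) factors and exon junction proteins were examined in CD8+ T cells of OT-I mice. The 9 genes were chosen by name, for what their proteins do, with earlier results of these data known. They were Upf1, Upf2, Upf3a, Upf3b, Smg1, Smg5, Smg6, Magoh and Eif4a3. All 9 were among the 55414 gene identifiers of the deposited table, and all 9 passed the filter on low counts that left 23003 genes for testing.

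Cells of the OT-I genotype, whose receptor recognises a peptide of ovalbumin, came from spleen and lymph nodes in every group. The N4 cells were taken 4 days after stimulation with the ovalbumin peptide N4, and the T4 cells 4 days after T4, a variant that stimulates the same receptor less potently. The series' design text gives both peptides together with antibodies against the costimulatory receptors OX40 and 41BB, and the naive cells are named only as naive. Each group had 2 libraries of polyadenylated RNA, the labels do not say whether these came from separate mice, and the p-values measure only the spread between libraries, which may be technical.

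NMD is the pathway that degrades messenger RNAs whose reading frame ends early. After splicing, a clamp of proteins called the exon junction complex stays just upstream of each joined pair of exons. When a ribosome stops well before such a clamp, UPF proteins bridge the stalled ribosome to it, the kinase SMG1 phosphorylates the helicase UPF1, and SMG5 and SMG6 start the destruction of the RNA. In developing T cells the pathway is known for clearing transcripts of antigen receptor genes that were joined out of frame, and transcripts that include a poison exon, the subject of the study named in the series' title, are also among its substrates.

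Library totals ran from 269033066 to 335968843 estimated counts. All 8 markers of CD8 T cells were above 0 in every library, and their CPM values (counts scaled by library total and by a TMM factor for composition) summed to 3929 to 7430. Markers of other cells were also present and moved with the groups. The 10 macrophage and monocyte markers summed to 17 to 20.6 CPM in N4, 258 to 271 CPM in T4 and 2232 to 2665 CPM in naive libraries, with 1 marker at 0 in each N4 library and none at 0 elsewhere. The 8 neutrophil markers summed to 45.3 and 39.6 CPM in N4, 12.2 and 6.23 CPM in T4, and 2412 and 24541 CPM in naive libraries, with 1 of them at 0 in each N4 library and in T4 replicate 2. The 7 red cell markers summed to 423 and 360 CPM in N4, 6511 and 8124 CPM in T4, and 3447 and 9232 CPM in naive libraries. Natural killer cell markers, 6 in number, summed to 245 and 272 CPM in N4, 535 and 567 CPM in T4, and 958 and 3002 CPM in naive libraries. The naive libraries therefore differed from each other in their neutrophil, red cell and natural killer cell signal. In whole-population RNA, fewer cells of a type and less RNA per cell cannot be told apart.

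Magoh was the only one of the 9 genes that passed the test, and it rose in N4 cells against both other groups. Its protein pairs with RBM8A (Y14) and locks the helicase EIF4A3 onto RNA, which forms the core of the exon junction complex. Magoh had 885 and 1148 CPM in the N4 libraries, 230 and 259 CPM in the T4 libraries and 189 and 382 CPM in the naive libraries. Both N4 libraries lay above all 4 others, and the T4 values fell between the naive ones. The means were 1016 ± 186 CPM in N4, 245 ± 20.7 CPM in T4 and 285 ± 137 CPM in naive cells (SD, n = 2 libraries each).

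Against naive cells, Magoh was 3.56-fold higher in N4 cells (log2 fold change 1.83, SE 0.40, adjusted p = 0.038 by edgeR's quasi-likelihood test with Benjamini-Hochberg adjustment over all genes). Against T4 cells it was 4.15-fold higher in N4 cells (log2 fold change 2.05, SE 0.40, adjusted p = 0.039, edgeR). T4 and naive cells did not differ beyond their spread, with a log2 fold change of -0.22 (SE 0.38, adjusted p = 0.87, edgeR), and that value turned to 0.19 with scaling by library size alone. Of the 9 genes, 1 was called in N4 against naive, where 12.1% of all genes tested were called and 4.87% were called higher. Likewise 1 of 9 was called in N4 against T4, where 7.96% of all genes were called and 3.48% were called higher. In T4 against naive 0 of the 9 were called by edgeR or by DESeq2. Over all genes, edgeR called 27 there, 0.117% of those tested, and DESeq2 called 2241. At an unadjusted p under 0.05 edgeR had 1 of the 9 there, Upf3b, beside 14.5% of all genes.

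The N4 difference kept its direction under all 16 alternative settings, between 1.27 and 2.42 on the log2 scale against naive and between 1.18 and 2.23 against T4, but its call did not hold under each of them. With only the compared groups in the fit, N4 against naive gave 1.71 (adjusted p = 0.1, edgeR), while N4 against T4 kept the call. The adjusted p went to 0.058 and 0.057 with upper-quartile scaling, to 0.068 and 0.081 with an offset for GC content, and above 0.05 without either N4 library or either T4 library. Leaving out naive replicate 2, the library with the most neutrophil signal, gave 2.42 against naive (adjusted p = 0.0081), and leaving out naive replicate 1 gave 1.27 (adjusted p = 0.031, both edgeR).

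**Figure D1:**
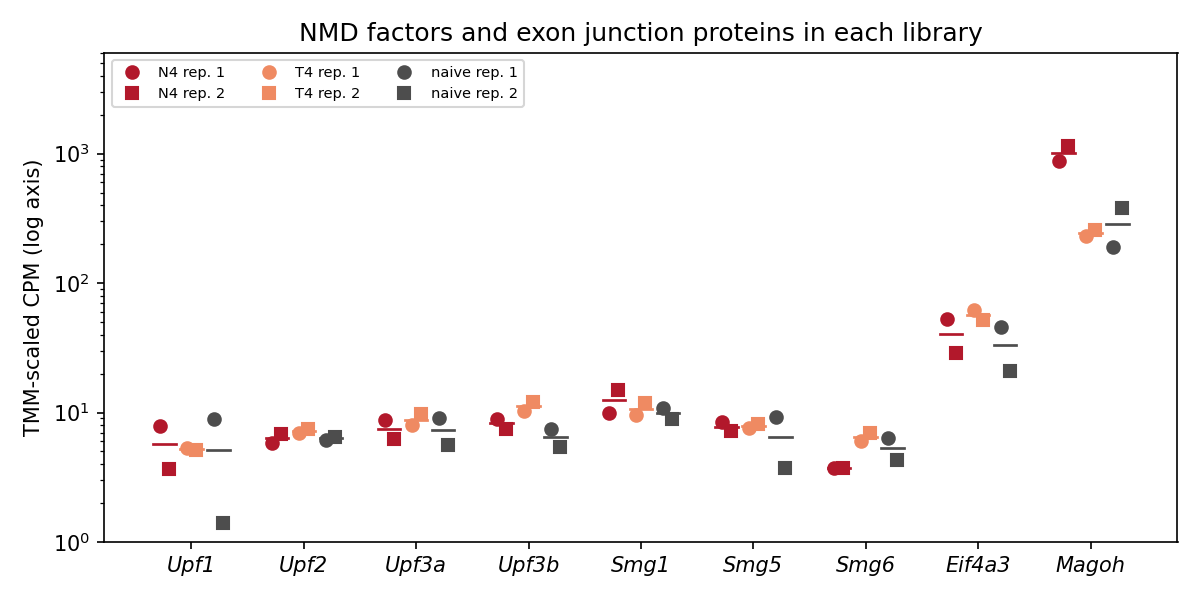
TMM-scaled CPM of the 9 genes on a log axis in each library, with N4, T4 and naive libraries side by side, circles for replicate 1, squares for replicate 2 and lines for group means. The 2 N4 points of Magoh, at 885 and 1148 CPM, stand above its other 4, and the other genes except Eif4a3 lie at or below 14.9 CPM.

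**Figure D2:**
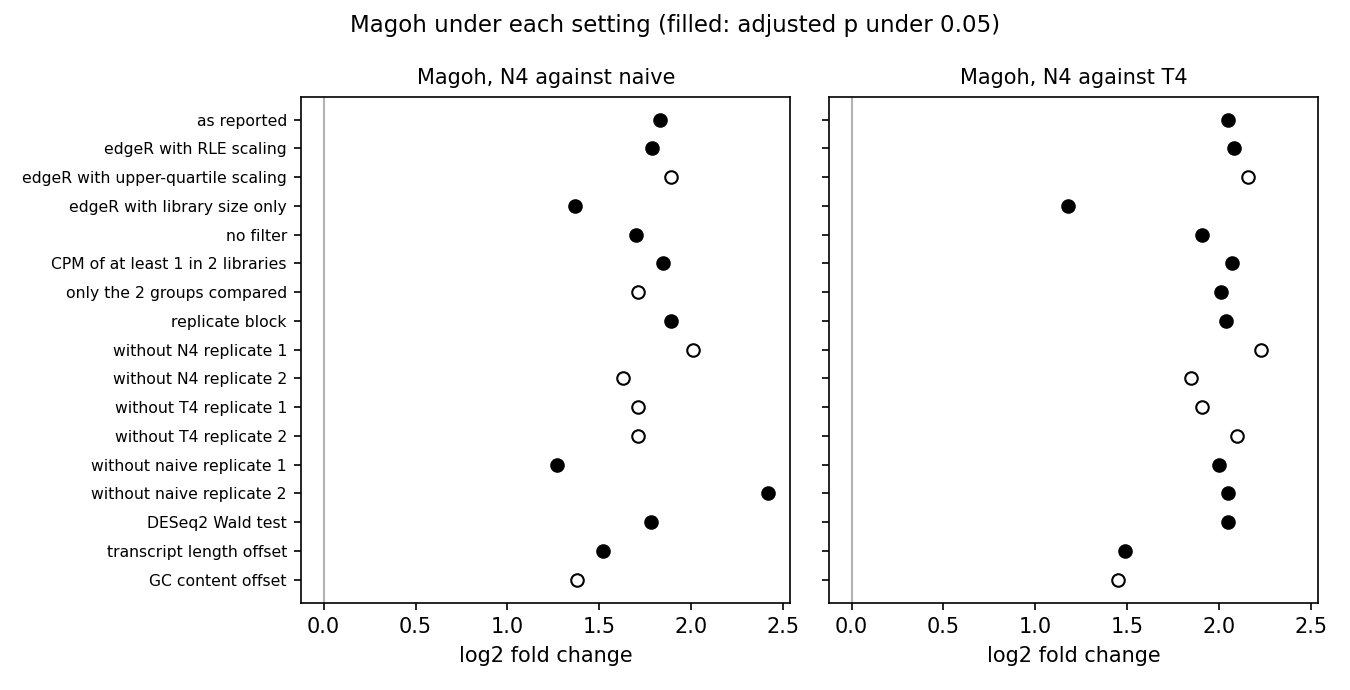
Log2 fold change of Magoh under the reported settings and 16 alternatives, N4 against naive on the left and N4 against T4 on the right, with filled points where the adjusted p was under 0.05. All points lie above 0, and 9 of 16 alternatives on the left and 10 of 16 on the right kept the call.

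Magoh is a short transcript of low GC content, 0.69 kb and 41.8%, and such genes as a class moved with the groups. Among 1355 well-measured genes under 1 kb, the median log2 deviation from each gene's own mean was 0.33 and 0.72 in the N4 libraries, -0.49 and -0.34 in the T4 libraries and -0.45 and 0.29 in the naive libraries. Their median log2 fold change was 0.55 in N4 against naive and 0.94 in N4 against T4. Magoh's own change exceeded that of 92.8% and 95.5% of them. Among 1372 genes with a GC content under 45%, the corresponding medians were 0.51 and 0.72. With an offset for transcript length, Magoh's log2 fold change was 1.52 against naive (adjusted p = 0.012) and 1.49 against T4 (adjusted p = 0.021, both edgeR). With the offset for GC content it was 1.38 against naive and 1.45 against T4. Both offsets were chosen after the values had been seen.

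Magohb, a second gene for nearly the same protein, followed Magoh across the libraries. It had 264 and 311 CPM in N4, 56.5 and 69.5 CPM in T4, and 48.1 and 110 CPM in naive libraries. The N4 libraries were again above the 4 others. Magohb rose 3.63-fold in N4 against naive (log2 fold change 1.86, SE 0.43, adjusted p = 0.044) and 4.56-fold in N4 against T4 (log2 fold change 2.19, SE 0.43, adjusted p = 0.04, both edgeR), while T4 against naive gave -0.33 (SE 0.41, adjusted p = 0.8). The coding sequences of the 2 genes are 81.3% identical over 438 aligned bases, with no identical run longer than 17 bases in the alignment. Exons of Magohb overlap the processed pseudogene Gm44958 on the same strand, which makes its counts less certain.

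Levels of different genes were compared per length, as TPM computed from the transcript counts. The ratio of Magoh to Magohb was 3.67 and 4.07 in the N4 libraries, 4.5 and 4.15 in the T4 libraries and 4.29 and 3.8 in the naive libraries, so the ranges overlapped. By contrast, the ratio of Magoh to its partner Rbm8a was 3.9 and 3.85 in the N4 libraries, 2.79 and 2.74 in the T4 libraries and 2.36 and 2.71 in the naive libraries. For that ratio the N4 libraries were the highest and did not overlap the others. The difference in this ratio was not tested, and genes under 1 kb, as Magoh is, moved with the groups as a class. Rbm8a itself, looked up for its role after its values were seen, had 829 and 1090 CPM in N4, 299 and 343 CPM in T4, and 291 and 514 CPM in naive libraries, with adjusted p = 0.071 against naive and 0.051 against T4 (edgeR).

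**Figure D3:**
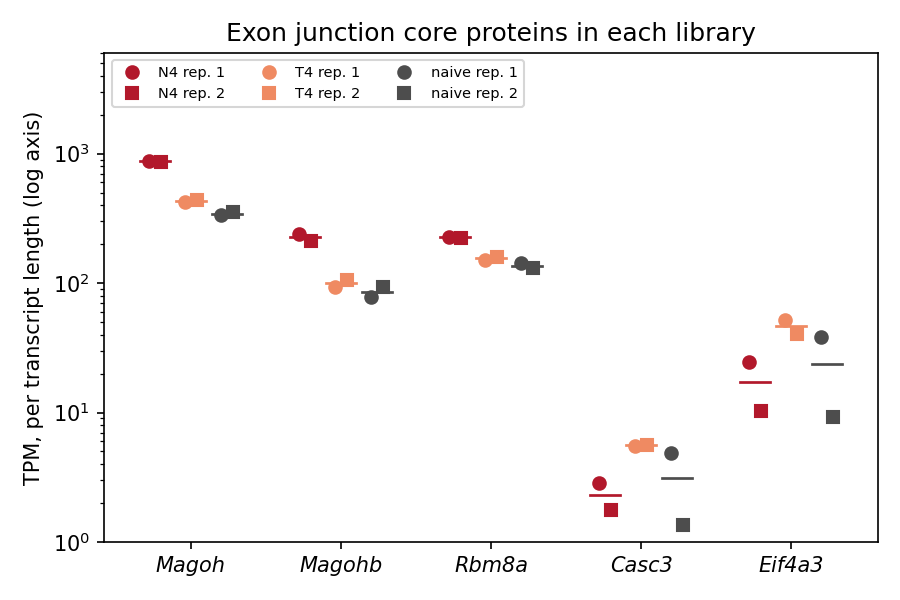
Per-length levels (TPM, log axis) of the core proteins of the exon junction complex in each library, with lines for group means. Magoh, Magohb and Rbm8a are highest in both N4 libraries, while Eif4a3 is at 24.5 and 10.2 TPM in N4, 52.2 and 40.4 TPM in T4, and 38.0 and 9.16 TPM in naive libraries.

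The promoter sequences of Magoh and Magohb are shown because these genes rose together in N4 cells. They were taken from RefSeq on GRCm38.p6 and run from 250 bases before to 50 bases after the start. The Magoh window is chr4:107879505-107879804 on the plus strand, and the Magohb window is chr6:131293195-131293494 on the minus strand. Capitals mark matches to the motifs searched.
Magoh: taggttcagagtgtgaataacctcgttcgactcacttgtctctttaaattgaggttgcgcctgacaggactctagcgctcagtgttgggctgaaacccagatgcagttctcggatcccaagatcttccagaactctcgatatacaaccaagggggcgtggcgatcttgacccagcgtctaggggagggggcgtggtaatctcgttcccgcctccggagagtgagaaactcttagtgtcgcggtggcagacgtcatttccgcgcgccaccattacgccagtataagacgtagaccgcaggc
Magohb: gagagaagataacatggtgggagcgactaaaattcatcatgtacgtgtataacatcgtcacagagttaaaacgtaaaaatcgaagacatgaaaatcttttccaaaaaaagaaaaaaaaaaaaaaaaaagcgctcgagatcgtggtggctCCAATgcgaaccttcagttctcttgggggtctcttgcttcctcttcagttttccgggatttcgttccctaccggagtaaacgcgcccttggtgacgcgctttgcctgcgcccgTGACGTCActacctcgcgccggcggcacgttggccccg

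Each of 8 motifs was searched on both strands, and none overlaps another in these windows. The Magohb window holds the CCAAT box (CCAAT, in 37.4% of the 32851 RefSeq promoter windows) and the cyclic AMP response element (TGACGTCA, in 1.79%). The Magoh window holds none of these letters, nor those of the GC box (GGGCGG, in 35.7%), the E-box (CACGTG, 7.15%), the ETS site (CCGGAAG, 8.86%), NRF1 (GCATGCGC, 2.71%), YY1 (AAGATGGC, 2.75%) or E2F (TTTCCCGC, 1.07%). The GC box was found in the windows of 7 of the 9 genes and the CCAAT box in 3 of them. NRF1 letters were found for Upf1 and YY1 letters for Upf3b. A match is a stretch of letters in the window and does not show that a factor binds there.

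Magoh lies at chr4:107879755-107887424 on the plus strand of GRCm38, and its exons overlap no other annotated gene. Almost all of its counts were assigned to the protein-coding transcript Magoh-201. The non-coding Magoh-202 held 1.65% of Magoh counts in T4 replicate 2, against 0.0148% to 0.0181% in the other 5 libraries. Over the 6 libraries, the genes whose centred log2 CPM profile lay nearest to that of Magoh were Snrpert, Snrpe and Hint1, with root mean square differences of 0.03, 0.04 and 0.06 among 2542 candidates, and Magohb was at rank 13 with 0.10.

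Eif4a3, the helicase that Magoh locks onto RNA, did not pass the test in any comparison. It had 52.6 and 28.8 CPM in N4, 61.5 and 51.6 CPM in T4, and 45.7 and 21 CPM in naive libraries. T4 libraries lay above both naive libraries, but the log2 fold change of 0.76 (SE 0.46) had an adjusted p of 0.52 (edgeR). In N4 against naive the values overlapped, with a log2 fold change of 0.29 (SE 0.46, adjusted p = 0.72). They also overlapped in N4 against T4, with -0.48 (SE 0.46, adjusted p = 0.54, both edgeR). Per length, both N4 libraries, at 24.5 and 10.2 TPM, lay below both T4 libraries, at 52.2 and 40.4 TPM. With scaling by library size alone they were also lower, at 43.1 and 18.5 CPM against 83.6 and 66.2 CPM. The ratio of Magoh to Eif4a3 in TPM was 36.1 and 84.6 in the N4 libraries, 8.07 and 10.8 in the T4 libraries and 8.82 and 38.5 in the naive libraries, and thus overlapped between N4 and naive libraries. Long runs of Eif4a3 sequence also occur in Gm5576, Gm5580 and Gm8994, whose counts came to 1.23%, 1.4% and 0.425% of those of Eif4a3.

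Upf1, the helicase at the centre of the pathway, varied more between libraries of one group than between groups. It had 7.89 and 3.63 CPM in N4, 5.36 and 5.14 CPM in T4, and 8.86 and 1.41 CPM in naive libraries. The naive libraries differed 6.27-fold, so that the naive group held both the highest and the lowest value. The log2 fold change was 0.16 in N4 against naive and 0.03 in T4 against naive, each with an SE of 0.82 (adjusted p = 0.92 and 1, edgeR). Without naive replicate 2, the library with the high neutrophil signal, these became -0.63 and -0.76, and without naive replicate 1 they became 1.91 and 1.80. The nearest profiles to that of Upf1 among the same 2542 genes, those of Itgb7, Ewsr1 and Eno1, lay at root mean square differences of 0.33, 0.35 and 0.36. Exons of Upf1 overlap Cers1 and Gdf1 on the opposite strand, and the library kit does not mark strand.

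The estimated transcripts of Upf1 also swung within groups. Transcripts Upf1-201 and Upf1-202 differ at the end of exon 7 and in their first exon. The exon is printed from Upf1-201 because the choice between its ends sets the length of a loop in the helicase domain, known in human and mouse as the long-loop and short-loop forms. Capitals mark the 33 bases, 11 codons, that Upf1-201 includes and Upf1-202 skips, and the exon lies at chr8:70339982-70340099 on the minus strand of GRCm38.
Upf1 exon 7: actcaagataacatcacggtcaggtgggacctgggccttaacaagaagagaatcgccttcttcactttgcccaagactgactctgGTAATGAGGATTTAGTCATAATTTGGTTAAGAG

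The short-loop transcript Upf1-202 held 95.8% (95% exact binomial interval 94.8 to 96.7) and 13.9% (11.5 to 16.6) of Upf1 counts in the N4 libraries. In T4 it held 0 of 2162 counts in replicate 1, where a floor of 3 counts allows a share of up to 0.139%, and 100% of 1992 counts in replicate 2. In naive cells it held 78.0% (76.6 to 79.3) in replicate 1 and 0 of 353 counts in replicate 2, where the same floor allows up to 0.85%. Each group therefore held 1 library high and 1 low in Upf1-202, and the shares did not order by group. The intervals cover counting error only, and the counts are estimates that a program divided between overlapping transcripts.

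**Figure D4:**
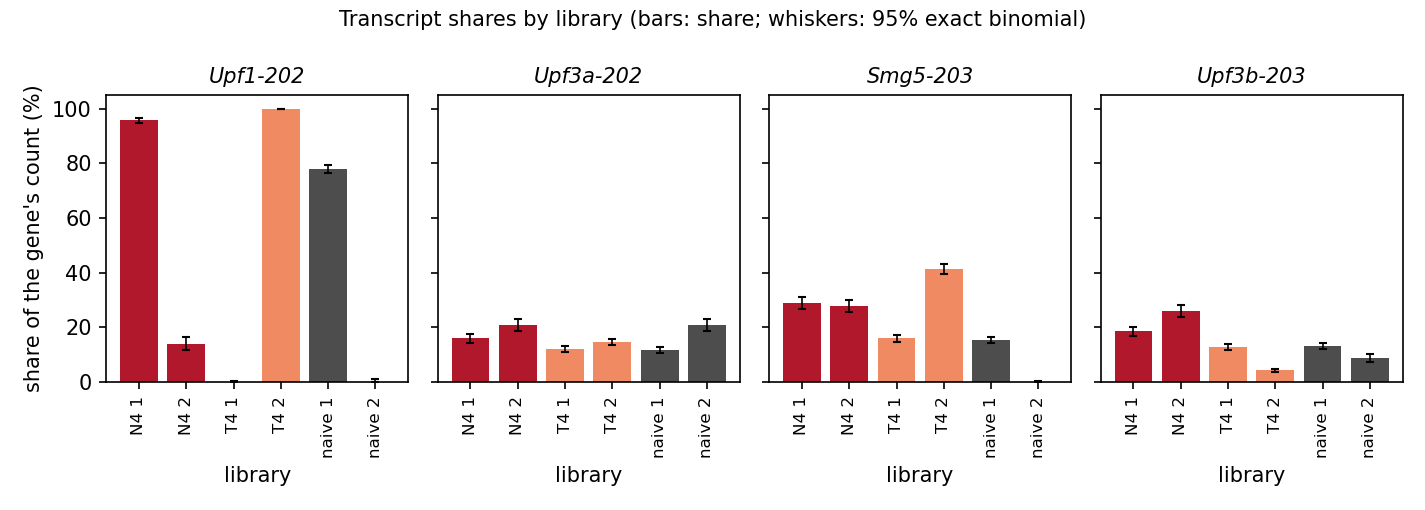
Share of each gene's estimated count held by 4 transcripts, in percent, for each library, with whiskers for the 95% exact binomial interval. Upf1-202 runs from 0% to 100% within the T4 group, while the Smg5-203 bars are near each other in N4 (28.8% and 27.7%) and apart in T4 (16% and 41.3%).

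On TMM-scaled CPM, Upf2, which links Upf1 to the Upf3 proteins, was the steadiest of the 9 genes. Its values were 5.84 and 6.83 CPM in N4, 6.98 and 7.51 CPM in T4, and 6.11 and 6.51 CPM in naive libraries. The T4 libraries were the highest 2, but the log2 fold changes of -0.19 in N4 against T4 and 0.20 in T4 against naive were both within their SE of 0.26. With scaling by library size alone, Upf2 had 4.79 and 4.38 CPM in N4, 9.49 and 9.63 CPM in T4, and 7.99 and 5.42 CPM in naive libraries. N4 against T4 was then -1.06 (adjusted p = 0.11, edgeR). All Upf2 counts fell on the protein-coding transcript Upf2-201, so its transcript use could not be tested.

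Upf3a and Upf3b are paralogs that connect the exon junction complex with Upf2, and in mammals Upf3b is the more active in decay. Their coding sequences are 68.0% identical over 1180 aligned bases. Upf3b had 8.98 and 7.47 CPM in N4, 10.3 and 12.0 CPM in T4, and 7.44 and 5.39 CPM in naive libraries. The groups did not overlap, with T4 highest and naive lowest, although the log2 fold change of N4 against naive, 0.36, turned to -0.23 with scaling by library size alone. The T4 difference from naive, 0.80 on the log2 scale (SE 0.29, unadjusted p = 0.033), did not pass adjustment over all genes (adjusted p = 0.3, edgeR).

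Upf3a had 8.70 and 6.22 CPM in N4, 7.99 and 9.67 CPM in T4, and 9 and 5.65 CPM in naive libraries, and all groups overlapped. Stretches of at least 60 bases of its main transcript, Upf3a-201, also occur in transcripts of Npc2, Zfp12 and other genes, so its counts are less certain. The ratio of Upf3b to Upf3a in TPM was 0.792 and 0.901 in the N4 libraries, 1.02 and 0.971 in the T4 libraries and 0.661 and 0.721 in the naive libraries. The ratio was thus highest in both T4 libraries and lowest in both naive libraries. The difference in this ratio was not tested.

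Smg1, the kinase that phosphorylates Upf1, had 9.95 and 14.9 CPM in N4, 9.64 and 11.8 CPM in T4, and 10.8 and 8.89 CPM in naive libraries. All groups overlapped, and the log2 fold change of N4 against naive was 0.34 (SE 0.30, adjusted p = 0.49, edgeR). Smg5, which binds phosphorylated Upf1, had 8.40 and 7.16 CPM in N4, 7.64 and 8.16 CPM in T4, and 9.28 and 3.72 CPM in naive libraries. As with Upf1, the naive libraries held both its highest and its lowest value.

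Smg6, the endonuclease that cuts the targeted RNA, was the gene that lay lowest in N4. It had 3.70 and 3.72 CPM in N4, 6.01 and 7 CPM in T4, and 6.34 and 4.28 CPM in naive libraries. Both N4 libraries were below all 4 others. The log2 fold change was -0.81 in N4 against T4 (SE 0.32, unadjusted p = 0.043, adjusted p = 0.16) and -0.52 in N4 against naive (SE 0.32, adjusted p = 0.31, both edgeR), so neither passed the test. Exons of Smg6 overlap Srr and the antisense gene Gm12333 on the opposite strand.

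**Figure D5:**
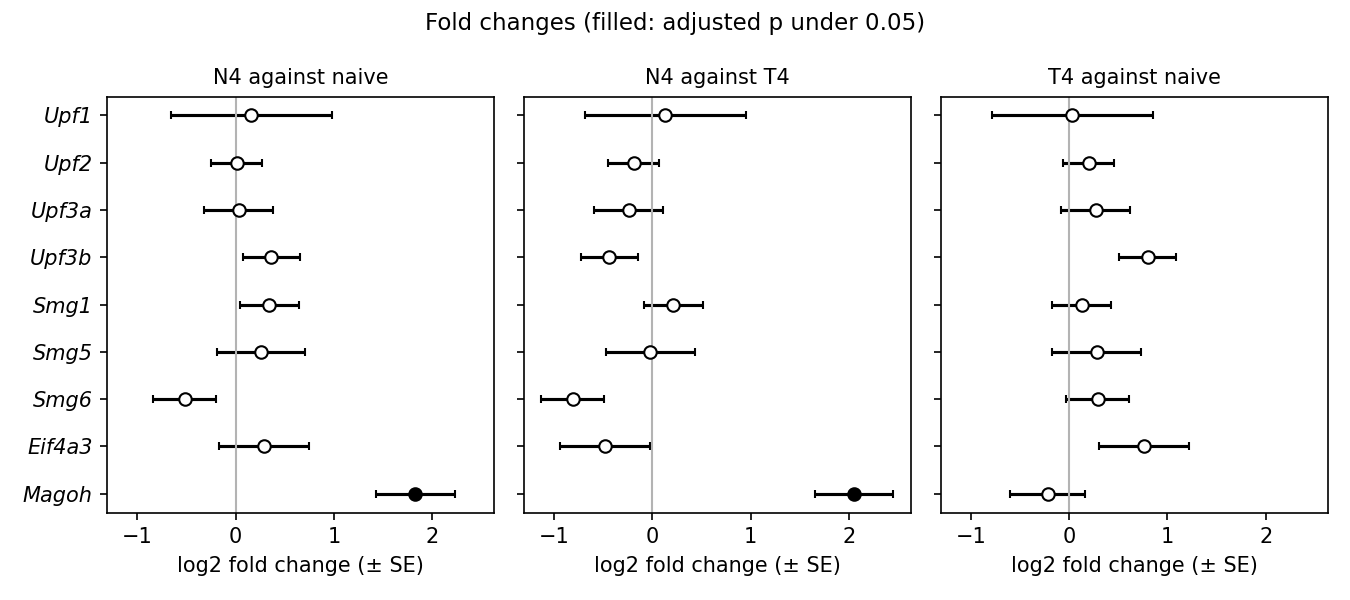
Log2 fold changes of the 9 genes with their SE in N4 against naive, N4 against T4 and T4 against naive, filled where the adjusted p was under 0.05. Magoh is filled at 1.83 and 2.05 in the N4 comparisons, the intervals of Upf1 are the widest (SE 0.82), and no point is filled in T4 against naive.

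Over the 9 genes, the median log2 fold change was 0.26 in N4 against naive, beside -0.09 over all genes tested. In T4 against naive the median was 0.27, beside 0.00 over all genes. In N4 against T4 it was -0.19, beside -0.20. Scaling by library size alone moved the N4 medians to -0.41 against naive and -1.06 against T4, while the medians over all genes moved to -0.65 and -1.05. Without naive replicate 2, the N4 median against naive was -0.17. In N4 against naive, both N4 libraries lay above both naive libraries for 2 of the 9 genes and below them for 1, where 26.5% and 28.9% of all genes did so. For T4 against naive, 3 of 9 lay above and 0 below, where 26.2% and 22.6% of all genes did so. For N4 against T4, 1 lay above and 3 below, beside 27.6% and 37.6% of all genes.

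The order of the levels per length began with the same 2 genes in every group. Magoh averaged 873 ± 14.8 TPM in N4, 428 ± 10.2 TPM in T4 and 344 ± 12.6 TPM in naive cells (SD, n = 2), and was followed by Eif4a3 with 17.3 ± 10.1, 46.3 ± 8.36 and 23.6 ± 20.4 TPM. Upf3a and Upf3b came next, at 2.56 ± 1.04 and 2.13 ± 0.679 TPM in N4, 5.72 ± 0.46 and 5.69 ± 0.268 TPM in T4, and 3.94 ± 2.71 and 2.66 ± 1.70 TPM in naive cells. Their libraries overlapped within each group. The other 5 genes averaged 0.395 to 1.25 TPM in N4, 1.39 to 2.54 TPM in T4 and 0.903 to 1.88 TPM in naive cells. In naive cells no neighbours among those 5 were separate, and Smg6 was the lowest in N4, separate from Upf2 above it.

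No change of transcript use was called for the 8 genes that could be tested, by edgeR's diffSpliceDGE. The lowest adjusted p among them was 0.39 in N4 against naive, 0.46 in T4 against naive and 0.39 in N4 against T4, where 0.808%, 0.26% and 1.04% of 10394 genes were called. On simulated counts this test made more false calls than its threshold allows. Transcripts with a retained intron made up 28.8% ± 0.0462 of Smg5 counts in N4 cells, 29.5% ± 18.1 in T4 cells and 9.08% ± 12.8 in naive cells (SD, n = 2), and the naive share was 17.5% with counts divided by transcript length. Nearly all of this was Smg5-203, which held 28.8% and 27.7% of Smg5 counts in the N4 libraries, 16% and 41.3% in the T4 libraries, 15.2% in naive replicate 1 and 0 of 929 counts in naive replicate 2, where the floor of 3 counts allows up to 0.323%.

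Retained-intron transcripts of Smg1 held 19.4% ± 7.68 of its counts in N4 cells, 12.4% ± 0.224 in T4 cells and 11.5% ± 7.49 in naive cells. With counts divided by transcript length, these shares were 57.3% in N4 cells, 48% in T4 cells and 39.2% in naive cells. Smg1-209 alone held 11.7% in N4 replicate 2 and at most 0.318% in any other library. For Upf3a the retained-intron share was 19.5% ± 3.87 in N4 cells, 13.7% ± 2.28 in T4 cells and 19.1% ± 8.30 in naive cells. The transcripts of Smg1, Smg5 and Smg6 that the annotation itself classes as decay targets held 0 to 3 counts in each library. The non-coding transcript Upf3b-203 held 18.5% and 26.0% of Upf3b counts in the N4 libraries, 12.8% and 4.18% in the T4 libraries and 13.2% and 8.62% in the naive libraries, with both N4 libraries highest.

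Among 13 other exon junction proteins, 2 rose in N4 against naive, Magohb and the export adaptor Alyref, where 4.87% of all genes were called higher. Alyref had 981 and 858 CPM in N4, 400 and 429 CPM in T4, and 177 and 264 CPM in naive libraries. Its log2 fold change against naive was 2.06 (SE 0.29, adjusted p = 0.015) in N4 and 0.91 (SE 0.29, adjusted p = 0.24) in T4 (edgeR). In N4 against T4, Magohb alone passed the test, where 3.48% of all genes were called higher. In T4 against naive none of the 13 passed, where 0.117% of all genes were called. The medians over the 13 were 0.18, -0.02 and 0.22 in N4 against naive, N4 against T4 and T4 against naive. Casc3, the remaining core protein, was looked up for its role after its values were seen, and had 12.9 and 8.80 CPM in N4, 10.1 and 9.29 CPM in T4, and 12.1 and 7.07 CPM in naive libraries.

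Among 13 other NMD factors, Etf1 rose in N4 against naive and Ncbp2 in N4 against T4, 1 gene in each, and none passed the test in T4 against naive. Over all genes tested, 4.87% and 3.48% were called higher in these N4 comparisons, and 0.117% were called in T4 against naive. Etf1, the factor that releases proteins at stop codons, had 36.5 and 40.2 CPM in N4, 19.6 and 20.8 CPM in T4, and 15.1 and 14.8 CPM in naive libraries, a log2 fold change of 1.36 in N4 against naive (SE 0.22, adjusted p = 0.019, edgeR). Ncbp2, the small subunit of the nuclear cap-binding complex, had 120 and 144 CPM in N4, 52.3 and 49.5 CPM in T4, and 47.9 and 73.4 CPM in naive libraries, with 1.38 in N4 against T4 (SE 0.29, adjusted p = 0.044, edgeR). The medians over these 13 factors were 0.21 in N4 against naive, 0.43 in N4 against T4 and 0.11 in T4 against naive.

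None of 15 general mRNA decay enzymes passed the test in any comparison. Over all genes tested, 12.1% were called in N4 against naive, 7.96% in N4 against T4 and 0.117% in T4 against naive. Cnot7, a deadenylase, came nearest in N4 against T4, with 29.8 and 33.1 CPM in N4 and 15.3 and 16.8 CPM in T4 libraries (log2 fold change 0.97, SE 0.24, adjusted p = 0.06, edgeR). The medians over the 15 were 0.37 in N4 against naive, 0.25 in N4 against T4 and 0.03 in T4 against naive.

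Of 10 genes whose RNAs are known substrates of the pathway, 2 fell in N4 against both other groups and none was called higher. Over all genes tested, 7.18% were called lower in N4 against naive and 4.47% in N4 against T4. Ddit3, a transcription factor of the stress response, had 3.08 and 2.94 CPM in N4, 19.7 and 18.4 CPM in T4, and 14.7 and 10.7 CPM in naive libraries. Its log2 fold change was -2.08 in N4 against naive (SE 0.27, adjusted p = 0.012) and -2.66 in N4 against T4 (SE 0.28, adjusted p = 0.016, both edgeR). Gadd45a, a growth arrest gene, had 1.89 and 1.09 CPM in N4, 7.04 and 9.04 CPM in T4, and 4.50 and 9.23 CPM in naive libraries, with -2.20 (SE 0.49, adjusted p = 0.04) and -2.43 (SE 0.49, adjusted p = 0.041). In T4 against naive none of the 10 passed. On CPM scaled by library size alone, both N4 libraries were still below all 4 others for Ddit3 and Gadd45a, above both naive libraries for Magohb, Alyref and Etf1, and above both T4 libraries for Magohb and Ncbp2. The median over the 10 was 0.04 in N4 against naive, 0.14 in N4 against T4 and 0.08 in T4 against naive. In N4 against naive, 9 of 10 macrophage and monocyte, 7 of 8 neutrophil, 6 of 7 red cell, 6 of 8 B cell, 4 of 8 dendritic cell and 4 of 6 natural killer cell markers also fell. Of the 6 natural killer cell markers, 1 was called higher in that comparison. In N4 against T4, 5 of 10 macrophage and monocyte, 1 of 8 neutrophil, 5 of 7 red cell, 5 of 8 B cell, 2 of 8 dendritic cell and 3 of 6 natural killer cell markers fell. The part of these cells in the results was not tested.

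Cell division genes were followed beside Magoh because they mark cycling cells. Their summed level was 1589 and 1744 CPM in N4, 651 and 623 CPM in T4, and 285 and 390 CPM in naive libraries. All 10 rose in N4 against naive and 5 of 10 in N4 against T4, while none of the 10 passed in T4 against naive (medians 2.57, 1.3 and 1.38). Of all genes tested, 4.87% and 3.48% were called higher in the N4 comparisons, and 0.117% were called in T4 against naive. On TMM-scaled CPM, T4 libraries were above both naive libraries for all 10 of these genes, beside 26.2% of all genes. On the same scale the T4 values of Magoh lay between the naive ones. The Magoh order depended on the scale. Per length, Magoh was at 421 and 435 TPM in T4 libraries and 335 and 353 TPM in naive libraries. With scaling by library size alone, each of the 10 cell division genes kept both T4 libraries above both naive libraries. Per length, Bub1 alone among them did not. It was at 0.654 and 0.193 TPM in T4 libraries and 0.268 and 0.231 TPM in naive libraries. The part of cell division in the Magoh difference was not tested.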

How the data were processed

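The authors deposited estimated counts per gene and per transcript, as whole numbers and not normalized, for 6 libraries in 3 groups of 2. Per the labels' protocols, the RNA came from a miRNeasy Micro kit and the libraries from a SMARTer ultra-low poly(A) kit, which does not mark strand. Tools named in the submitters' processing notes, without their roles, are STAR 2.7.1a with SAMtools 1.9, StringTie 2.1.0, and DESeq2 1.30.1 under R 4.0.5, and the build named is mm39. For the annotation release, strand setting and sorting gate, the sources used here give nothing.

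GENCODE M21 models on GRCm38, another build, served for symbols (found for 94% of gene identifiers), transcript types, lengths, GC content and printed coordinates. TPM was computed here from transcript counts and these lengths. Genes were tested with edgeR 4.0.16 (R 4.3.3; filterByExpr by group, TMM scaling, a quasi-likelihood fit of group means to the 6 libraries together, 3 residual degrees of freedom, Benjamini-Hochberg adjustment over 23003 genes, threshold 0.05). The common biological coefficient of variation was 0.669. SEs were obtained as the absolute log2 fold change over the root of F. Transcript use was tested with diffSpliceDGE on the whole transcript table. Both procedures were tested on simulated data. Alternatives were RLE, upper-quartile and library-size scaling, no filter and a stricter filter, the compared groups alone, a replicate block, each library left out, DESeq2 1.42.0, and offsets for transcript length and GC content, the last 2 added after the data were seen.

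The genes and the lists beside them were chosen with earlier results of these data known. The text names all 9 genes, their close paralogs, and from each other list the genes past the threshold (at most 6, by smallest p) or else the one of smallest p; the cell division list is given as a whole. Named beside them are the 3 genes nearest to Magoh and to Upf1 by centred log2 CPM.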

Additional observations from a re-analysis of the deposited data

Results flagged for a closer look

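The response of Magoh differed between the peptides. Its log2 fold change against the same naive libraries was 1.83 in N4 and -0.22 in T4, and the difference of these responses, which equals N4 against T4, was 2.05 (SE 0.40, adjusted p = 0.039, edgeR's quasi-likelihood test). Both N4 libraries lay above both T4 libraries. With scaling by library size alone the difference was smaller, with means of 731 CPM in N4 and 323 CPM in T4. Genes under 1 kb had a median of 0.94 in that comparison and cell division genes a median of 1.3. Their part in the difference was not tested beyond the length and GC offsets, under which it was 1.49 (adjusted p = 0.021) and 1.45 (adjusted p = 0.081).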

How the results depend on the processing

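With 2 libraries per group, the precision is limited by their number. The number of genes called in N4 against naive was 2772 as reported, 4257 with no filter, 1044 with only the compared groups in the fit and 6683 with DESeq2, and it ran from 639 to 4487 when a library was left out. For N4 against T4 it was 1830 as reported, 3834 with no filter, 3048 with the stricter filter, 5281 with only the compared groups, 6204 with DESeq2, 1043 with the GC offset, and 0 to 4547 when a library was left out. For T4 against naive it was 27 as reported, 0 with RLE scaling, upper-quartile scaling or only the compared groups, 53 with library size only, 956 with no filter, 287 with the stricter filter, 2241 with DESeq2, 142 with the length offset, 4 with the GC offset, and 0 to 357 when a library was left out. Of the 9 genes, 0 were called with upper-quartile scaling or the GC offset in N4 against naive and in N4 against T4, 0 with only the compared groups in N4 against naive, and 0 to 1 when a library was left out. The lone library of a group was then assumed to vary like the other groups. The cause of these differences was not tested.

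Deviations of same-numbered libraries correlated at 0.0798 between N4 and naive, 0.0174 between N4 and T4 and 0.0372 between T4 and naive. These values gave no sign that replicate numbers pair the samples. With 2 libraries per group they cannot show that the samples were unpaired. With replicate number as a block, 3367 genes were called in N4 against T4 and 130 in T4 against naive, Magoh was called in both N4 comparisons (1.89 and 2.04), and Upf1 turned to -0.09 in N4 against T4.

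Beside Magoh, none of the other 8 genes was called in any of 384 tests under alternatives (lowest adjusted p 0.056), and their small fold changes changed sign 51 times. In N4 against naive, scaling by library size alone gave -0.53 for Upf1, -0.55 for Upf2, -0.57 for Upf3a, -0.23 for Upf3b, -0.28 for Smg1, -0.41 for Smg5 and -0.33 for Eif4a3. The GC offset gave -0.39 for Upf2, -0.06 for Upf3b and -0.03 for Smg1. Upf2 was -0.05 with DESeq2, -0.03 with RLE scaling, -0.13 with no filter, -0.10 with only the compared groups and -0.08 with the length offset, and Upf3a was -0.02, -0.0035, -0.11 and -0.06 under the first 4 of these. In N4 against T4, library size alone gave -0.66 for Upf1 and -0.68 for Smg1, the GC offset -0.20 for Smg1 and 0.41 for Smg5, upper-quartile scaling 0.07 for Smg5, and the length offset 0.06 for Upf3a and 0.0027 for Smg5. In T4 against naive, Upf1 was -0.01 with DESeq2 and with RLE scaling, and Magoh was 0.19 with library size alone and 0.02 with the length offset.

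Leaving out a library moved N4 against naive between -0.63 and 1.91 for Upf1, -0.18 and 0.11 for Upf2, -0.28 and 0.27 for Upf3a, -0.26 and 0.93 for Smg5, and -0.22 and 0.83 for Eif4a3. It moved N4 against T4 between -0.53 and 0.58 for Upf1, -0.11 and 0.47 for Smg1, and -0.14 and 0.08 for Smg5. It moved T4 against naive between -0.76 and 1.80 for Upf1, -0.03 and 0.55 for Upf3a, -0.10 and 0.22 for Smg1, -0.24 and 1.00 for Smg5, and -0.73 and 0.37 for Magoh. The median over the 9 genes ranged from -0.17 to 0.48 in N4 against naive and from -0.51 to -0.11 in N4 against T4. Dividing counts by transcript length raised the retained-intron shares to 57.3% for Smg1 in N4 cells, 48% in T4 cells and 39.2% in naive cells, to 29.6%, 22.1% and 27.6% for Upf3a in the same order, and to 36.6%, 39.4% and 17.5% for Smg5. For Smg1 the libraries of all groups overlapped.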
